A study of Mus musculus with 24 samples.

Results

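The Schwann cell and nerve root genes studied here are Pmp22, Prx, Ncmap, Drp2, Cldn19, Egfl8, Gdnf, Ngfr and Cdh19. They are 9 of the 21965 genes in the count table and were picked by name, their Ensembl identifiers being matched to mouse symbols. All 9 reached a sum of 10 counts over the 24 libraries and so were among the 17167 genes tested. Read counts on genes were obtained from spinal cord of plp-cre;rpl22HA mice, in which tamoxifen-driven Cre tags the ribosomes of oligodendrocytes (OLs) with HA. The mice were left uninjured (naive) or studied 2, 10 or 42 days (dpi) after a T9 contusion of 50 kdyn, and the sample labels give an age of 10 to 12 weeks at injury. The study's methods give a younger age at injury and state that naive and dpi 42 tissue was taken from mice of 1 age, so the ages of the groups are uncertain. Every group had 3 tissue pools of 2 mice, and every pool was split into a total RNA library and a library of RNA pulled down with the tagged ribosomes (OL), so n = 3 for each kind of RNA at each time.

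All groups carried the tag and the same Plp promoter construct. The study names as a limit that this driver is also active in Schwann cells and that short pieces of spinal nerve root may have stayed on the tissue. Schwann cell ribosomes can therefore be tagged, and OL-bound RNA is not RNA of OLs alone. Fewer cells of a type and less RNA per cell cannot be told apart in these libraries. The labels of 2 libraries of dpi 42 conflict, and their kind and pool were taken from the column names.

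Schwann cells form the myelin of peripheral nerves and of spinal nerve roots, while OLs form that of the brain and spinal cord. The 2 kinds of myelin share some proteins and differ in others. Periaxin (Prx) belongs to peripheral myelin, and the transcription factor EGR2 switches on its genes together with SOX10. After nerve injury Schwann cells turn to a repair state in which they make growth factors such as GDNF and raise the neurotrophin receptor p75, the product of Ngfr.

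Libraries held 25840127 to 32987841 counts (median 29062636). At this depth 3 counts, taken as the floor of detection, correspond to 0.084 to 0.127 CPM (counts scaled to library size by TMM). In the OL libraries the 8 OL markers summed to 96300 to 158000 CPM, against 19300 to 27900 CPM in total RNA, so the pull-down held OL RNA in every group. The 4 astrocyte markers summed to 901 to 11700 CPM in the OL libraries, with 5940 to 11700 CPM in naive pool 3, dpi 2 pool 3, dpi 10 pool 2 and dpi 42 pools 1 and 2. In total RNA they summed to 4250 to 7420 CPM. In naive pool 3, dpi 2 pool 3 and dpi 42 pools 1 and 2 the OL sum lay above that of total RNA of the same pool. Both libraries of dpi 2 pool 2 held 2414 and 2604 counts on 4 Y-linked genes, against at most 13 elsewhere, although the labels describe female mice.

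Peripheral myelin RNA was nearly missing from 2 of the 3 naive pools and was counted in the third. Prx (chr7:27499324-27520214, plus strand, GRCm38) encodes periaxin, a scaffold protein of the Schwann cell membrane. In naive OL libraries it had 2, 4 and 2155 counts in pools 1, 2 and 3. Its total RNA counts in the same pools were 14, 10 and 740. Both kinds of RNA from naive pool 3 therefore stood apart from the other 4 naive libraries for Prx. OL of naive pool 3 also differed beyond Prx. Its mean chi-square of counts per gene against OL of pools 1 and 2 was 166 and 165, beside 10.3 between those pools. Pairs of injured OL libraries had 22 to 146. In naive OL pools 1, 2 and 3 OPC (OL precursor) markers summed to 34.3, 26.7 and 132 CPM. Astrocyte markers summed to 1280, 1120 and 7550 CPM there. Fits without this pool thus leave out more than peripheral myelin RNA.

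**Figure D1:**
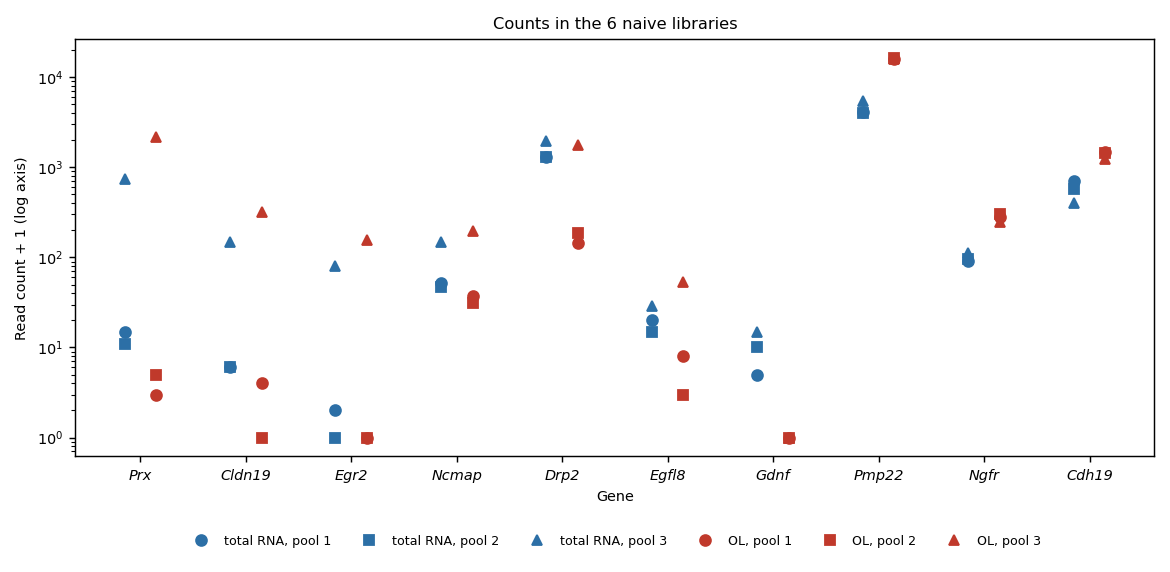
Read counts (plus 1, log axis) of 10 genes in the 6 naive libraries, with total RNA in blue, OL in red and the marker giving the tissue pool. Prx, Cldn19 and Egr2 lie high only in pool 3 (triangles; Prx 740 and 2155 counts), whereas Pmp22, Ngfr and Cdh19 lie close together over the 3 pools of each kind of RNA.

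Some other genes of peripheral myelin had the same split. Cldn19 (chr4:119255414-119262438, plus strand), which encodes the tight junction protein claudin-19 of peripheral myelin, had 3, 0 and 318 counts in naive OL and 5, 5 and 149 in naive total RNA. Egr2 had 0, 0 and 156 counts in naive OL and 1, 0 and 79 in total RNA. For Dhh, the Schwann cell signal Desert hedgehog, the counts were 5, 2 and 89 in naive OL. Pool 3 was the high library for each of these 3 genes. Pmp2 did not follow this split in naive OL, with 0, 6 and 2 counts, which lie near the floor.

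In naive OL, Pmp22, Ngfr and Cdh19 did not follow this split and so did not mark the library that held peripheral myelin RNA. Pmp22 (chr11:63128982-63159547, plus strand), which encodes a membrane protein of compact peripheral myelin, had 16129, 16206 and 15964 counts in naive OL. Ngfr (chr11:95568818-95587735, minus strand) had 281, 306 and 244 counts, and Cdh19 (chr1:110888326-110977584, minus strand), which encodes a cadherin known from the Schwann lineage, had 1495, 1434 and 1222. In pools 1 and 2 these counts stood in libraries with at most 4 counts of Prx. For these 3 genes the naive OL counts thus go against a label of genes particular to Schwann cells. In naive total RNA Pmp22 was highest in pool 3, with 4116, 4044 and 5501 counts in pools 1, 2 and 3. Ngfr had 91, 95 and 111 there, and Cdh19, with 706, 572 and 396, was lowest in pool 3. Which cells the counts of these genes came from was not tested.

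Ncmap and Drp2 lay between these patterns. Ncmap (chr4:135369576-135398227, minus strand), which encodes a protein of noncompact myelin, had 36, 30 and 196 counts in naive OL and 51, 46 and 147 in naive total RNA. Drp2 (chrX:134404551-134456573, plus strand), whose product joins periaxin to the dystroglycan complex, had 145, 184 and 1777 counts in naive OL against 1289, 1296 and 1964 in naive total RNA. Drp2 was thus counted in every naive total library, and its OL counts in pools 1 and 2 were below all others of the series. The astrocyte markers also differed between these OL libraries, with sums of 1280, 1120 and 7550 CPM in pools 1, 2 and 3, and their part in the Drp2 counts was not tested.

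All 18 injured libraries held peripheral myelin RNA. For Prx the OL counts in pools 1, 2 and 3 were 560, 1751 and 1019 on dpi 2, then 2602, 1665 and 1779 on dpi 10, then 2462, 2608 and 2757 on dpi 42. The total RNA counts were 337, 1230 and 359, then 1163, 593 and 647, then 2098, 862 and 1321. Each injured library was thus above naive pools 1 and 2, whereas naive OL pool 3, with 2155, lay above 5 of the 9 injured OL libraries. On dpi 2 the highest library of both kinds was pool 2, the pool with Y-linked counts.

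The test of Prx depended on naive pool 3. Group means in OL were 27.6 ± 47.5 CPM in naive tissue and 43.7 ± 25.2, 77.4 ± 20.6 and 97.1 ± 10.9 CPM on dpi 2, 10 and 42 (SD, n = 3). With all libraries the Log2FC of OL against naive was 0.66 ± 1.27, 1.49 ± 1.29 and 1.81 ± 1.30 (SE), with q = 0.754, 0.488 and 0.311 in edgeR's quasi-likelihood test with Benjamini-Hochberg adjustment over all tested genes. Without both libraries of naive pool 3, an alternative chosen after seeing the data, these values were 8.38, 9.21 and 9.54 with q of 8.47e-07, 1.12e-06 and 5.44e-07 in the same edgeR test. In total RNA the Prx values were 1.23, 1.53 and 2.37 (q = 0.5, 0.415 and 0.231), and 5.59, 5.89 and 6.72 without that pool, with q of at most 1.4e-05.

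Cldn19 gave the same picture at lower counts. Its OL counts were 131, 323 and 161 on dpi 2, then 909, 534 and 626 on dpi 10, then 593, 681 and 693 on dpi 42. On dpi 10 and 42 all 6 OL libraries lay above the 318 counts of naive pool 3, while on dpi 2 only pool 2 did. The OL change was 0.97 ± 1.12, 2.68 ± 1.16 and 2.56 ± 1.15 with all libraries (q = 0.548, 0.121 and 0.0962). Against naive pools 1 and 2 alone, with 3 and 0 counts, the ratio of summed counts per depth was 126 on dpi 2 (exact 95% interval 42.8 to 612), 418 on dpi 10 (143 to 2030) and 384 on dpi 42 (131 to 1870), where the intervals cover counting error only. The edgeR fit without naive pool 3 gave q of 6.6e-06, 1.88e-06 and 1.55e-06.

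Upstream sequences of Prx and Cldn19 are shown because these members had nearly the same profile over the OL libraries. They come from the RefSeq promoter table (GRCm38.p6), which held 13 windows for 7 of the 9 members, and are printed 5′ to 3′ on the gene's strand up to the first annotated exon base. Capitals mark matches, on either strand, to GCGTGGG, which is part of the EGR site, to GTGGGCG, which overlaps it within the same site, and to the cores of SOX sites, which were searched as CAAAG and, in a variant form, as CAATG. The Prx window lies at chr7:27499074-27499323 and the Cldn19 window at chr4:119255191-119255413, both on the plus strand.
Prx: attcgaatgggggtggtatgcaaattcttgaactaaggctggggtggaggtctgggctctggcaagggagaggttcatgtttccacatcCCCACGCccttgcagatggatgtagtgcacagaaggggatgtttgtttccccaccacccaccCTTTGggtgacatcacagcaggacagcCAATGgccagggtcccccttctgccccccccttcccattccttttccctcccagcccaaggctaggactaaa
Cldn19: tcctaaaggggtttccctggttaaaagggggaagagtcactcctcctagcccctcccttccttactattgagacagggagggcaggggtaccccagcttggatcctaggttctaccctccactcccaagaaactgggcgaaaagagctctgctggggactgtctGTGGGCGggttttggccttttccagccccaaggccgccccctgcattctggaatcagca

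Prx held 1 match to GCGTGGG and Cldn19 held 1 match to GTGGGCG. Over the 32851 windows of the table, each searched over its full 250 upstream bases, 4.3% held GCGTGGG and 7.02% held GTGGGCG. The SOX core CAAAG stood in 48.6% and CAATG in 32.6%, so matches to these short letters were common. The matches are a description of letters and not of binding.

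In OL some genes outside the 9 followed Prx more closely than any member did. Over the 12 OL libraries the Pearson r of log2 CPM with Prx was 0.989 for Egr2 and 0.989 for Ogn, among the highest of the 12609 genes compared. Plekha4 (0.98) was also above every member. Afap1l2 (0.973), Sostdc1 (0.973), Psmb9 (0.967), Slc43a3 (0.964), Mfap5 (0.962) and Bmp7 (0.959) came next, below the member Cldn19. Among members r was 0.977 for Cldn19, 0.928 for Drp2, 0.904 for Egfl8 and 0.89 for Ncmap. It was 0.439 for Pmp22, 0.423 for Ngfr, 0.184 for Gdnf and -0.575 for Cdh19. Over the total RNA libraries r with Prx was 0.964 for Cldn19, 0.886 for Ncmap, 0.87 for Pmp22 and 0.78 for Egfl8. There it was 0.738 for Drp2, 0.629 for Ngfr, 0.488 for Gdnf and -0.373 for Cdh19. Pmp22 thus followed Prx more closely in total RNA than in OL. Naive pools 1 and 2 are the lowest points of Prx in both kinds of RNA, and each order describes its own libraries only.

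**Figure D2:**
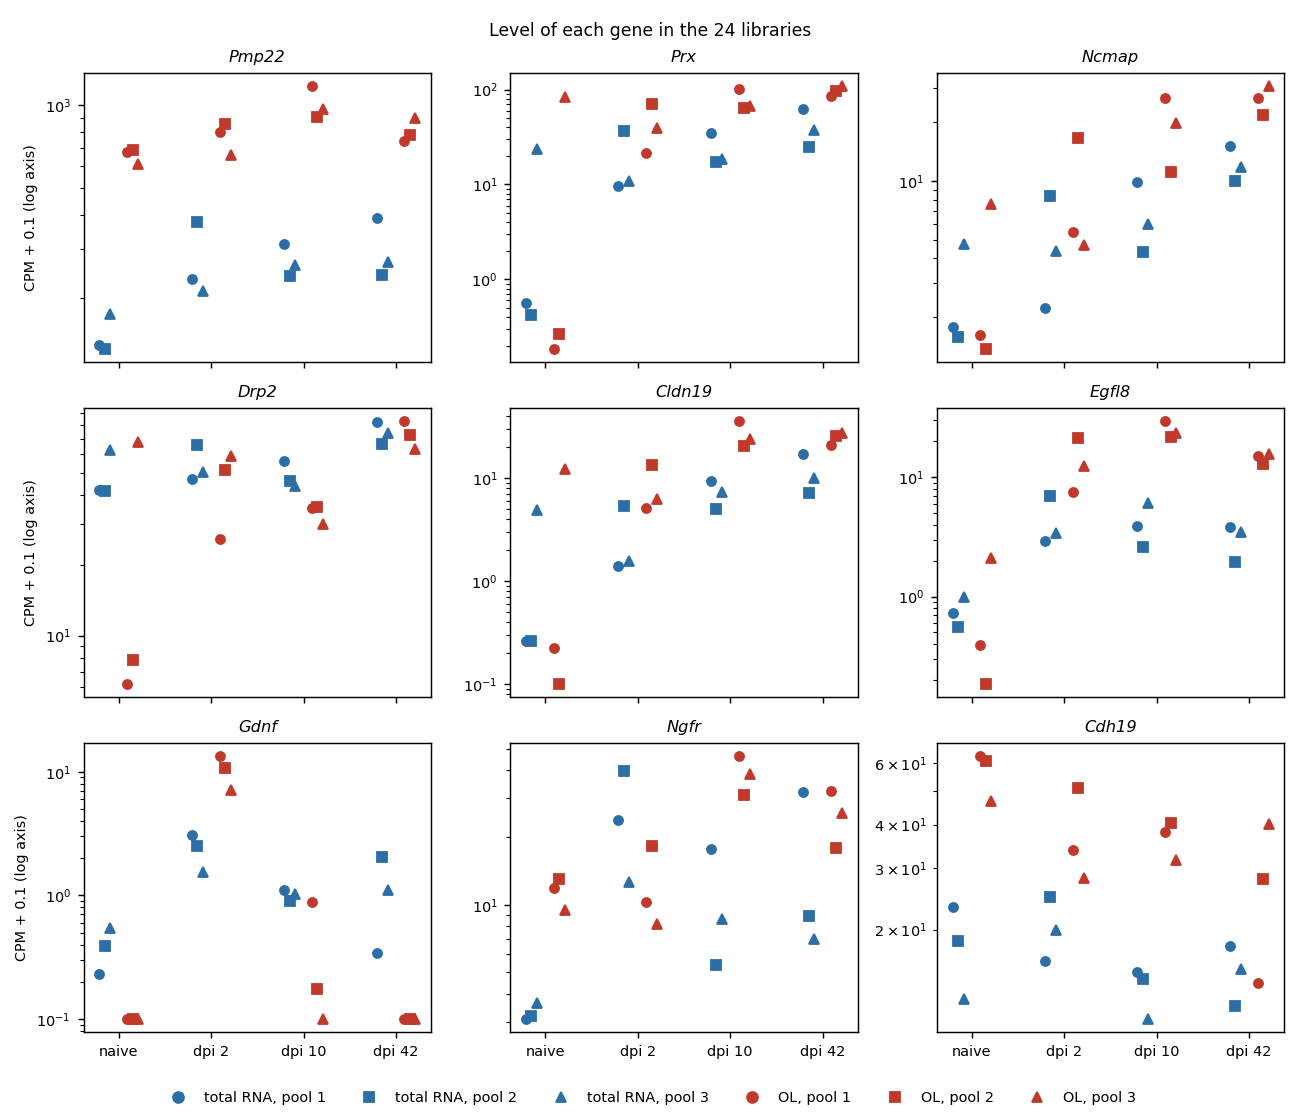
CPM (plus 0.1, log axis, each panel with its own range) of the 9 genes in the 24 libraries, by time after injury, with total RNA in blue, OL in red and the marker giving the tissue pool. For Prx and Cldn19 the naive points of pool 3 lie among the injured ones, Gdnf in OL is high on dpi 2 only (7.0 to 13.3 CPM), and Cdh19 in OL is highest in naive tissue (46.7 to 62.8 CPM).

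In the OL libraries 2, 5 and 3 of the 9 members passed q under 0.05 against naive on dpi 2, 10 and 42. On dpi 2 Egfl8 and Gdnf rose, where 18.4% of all tested genes rose, and 20% fell. On dpi 10 Pmp22, Ncmap, Egfl8, Gdnf and Ngfr rose, where 9.62% of genes rose. On dpi 42 Ncmap and Egfl8 rose and Cdh19 fell, where 16.2% rose and 16.9% fell. Leaving out OL of naive pool 1 left Egfl8 as the 1 member that passed on dpi 10, and leaving out OL of naive pool 2 or of dpi 10 pool 1 left 2. Egfl8 and Gdnf are named by the study from these same samples and are not independent evidence of a direction.

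More members rose on dpi 2 and 42 when naive pool 3 was left out. Without it 6 members rose on dpi 2 (Prx, Ncmap, Drp2, Cldn19, Egfl8 and Gdnf), where 18.4% of genes rose. On dpi 10 5 rose (the same without Gdnf), where 9.96% of genes rose, and on dpi 42 these 5 rose and Cdh19 fell, where 16.9% rose and 17% fell. The median Log2FC of the 9 members was 0.73, 1.76 and 1.41 with all libraries and 2.71, 3.78 and 3.39 without that pool, against 0 over all genes in each case. With Gdnf at its lower bound in place of its fitted value the medians of dpi 10 were 1.49 and 2.28, and the others did not move.

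Between dpi 2 and dpi 42 Gdnf was the member whose OL level changed, falling to 0, where 8.66% of all genes fell and 8.91% rose. Without naive pool 3 Ncmap (1.57, q = 0.0266), Drp2 (0.68, q = 0.0307) and Cldn19 (1.60, q = 0.0244) also rose from dpi 2 to dpi 42 by edgeR, where 9.56% of genes rose.

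Egfl8, which encodes an EGF-like domain protein, was the member that rose in OL on each injured day with and without that pool. Its OL counts were 7, 2 and 52 in naive tissue, 196, 523 and 325 on dpi 2, then 757, 569 and 613 on dpi 10, then 427, 343 and 400 on dpi 42. All 9 injured OL libraries lay above naive pool 3. The OL change was 4.08 ± 0.67, 4.94 ± 0.69 and 4.17 ± 0.67 (q = 5.09e-05, 3.24e-05 and 7.14e-05, edgeR), and it passed in all 24 fits that left out 1 library. Without naive pool 3 it was larger, at 6.14 ± 0.68, 7 ± 0.70 and 6.22 ± 0.68, with q of at most 1.53e-06 by edgeR. Egfl8 (chr17:34613349-34615971, minus strand) shares 101 exon bases with Agpat1 on the other strand, whose OL change was 0.43, 0.20 and 0.33, and 615 with Gm20460 on its own strand, which was not analysed here.

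In total RNA Egfl8 rose on each injured day as well. The counts were 19, 14 and 28 in naive tissue, 100, 231 and 110 on dpi 2, then 129, 87 and 209 on dpi 10, then 124, 64 and 118 on dpi 42. The total change was 2.72 ± 0.65, 2.64 ± 0.65 and 2.17 ± 0.64 (q = 0.00203, 0.0031 and 0.0178, edgeR), and on dpi 42 q reached 0.0799 when naive pool 1, naive pool 2 or dpi 42 pool 3 was left out. Whether OL and total RNA changed differently did not pass with all libraries (difference 1.36, 2.30 and 1.99, q = 0.367, 0.134 and 0.197). It passed without naive pool 3 (3.13, 4.07 and 3.76, q = 0.0186, 0.0062 and 0.0101), and with a block for the tissue pool on dpi 10 (2.98, q = 0.0186) and dpi 42 (2.65, q = 0.0314), all by edgeR.

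Relative to Prx, Egfl8 was lower in naive pool 3 than in any injured library. This pool held 2.41 Egfl8 counts per 100 Prx counts in OL and 3.78 in total RNA. In OL this ratio was 29.9 to 35 on dpi 2, 29.1 to 34.5 on dpi 10 and 13.2 to 17.3 on dpi 42. The 9 injured OL libraries were all above naive pool 3, and those of dpi 42 were all below those of dpi 2 and 10. Only 1 naive pool had 100 or more Prx counts, so the naive ratio has no replicate and no test was made. In naive pools 1 and 2 total RNA held 19 and 14 Egfl8 counts beside 14 and 10 of Prx, and OL held 7 and 2 beside 2 and 4. Egfl8 was thus not low against Prx in these pools, at counts too few for a ratio.

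**Figure D3:**
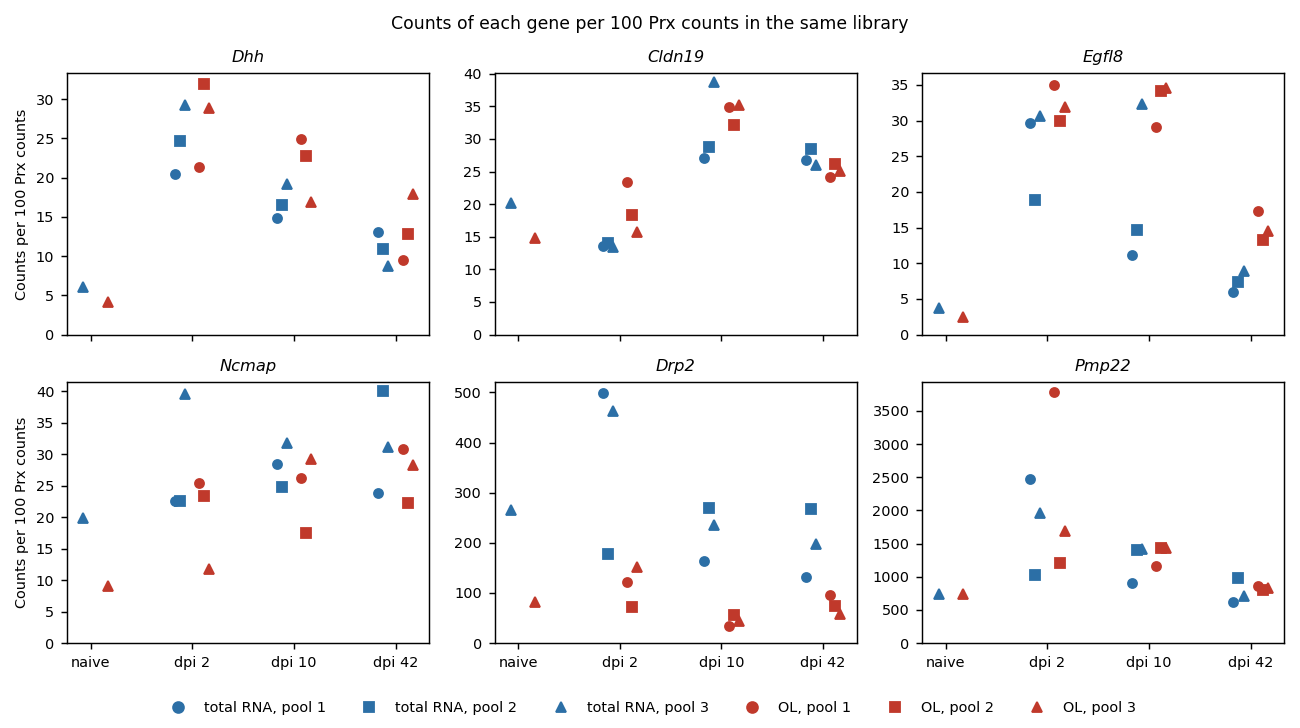
Counts of 6 genes per 100 Prx counts of the same library (linear axes from 0), with total RNA in blue, OL in red and the marker giving the tissue pool; libraries with fewer than 100 Prx counts are left out, so naive tissue shows pool 3 alone. Egfl8 in OL stands at 2.41 in naive pool 3 and at 29.9 to 35 on dpi 2, and Dhh in OL at 4.13 in naive pool 3 and at 21.4 to 31.9 on dpi 2.

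Cldn19 varied less against Prx than Egfl8 did. It stood at 14.8 counts per 100 Prx counts in naive OL pool 3, 15.8 to 23.4 on dpi 2, 32.1 to 35.2 on dpi 10 and 24.1 to 26.1 on dpi 42. Cldn19 was thus higher against Prx in every OL library of dpi 10 and 42 than in any of dpi 2. Dhh, which is not a member, stood at 4.13 in naive OL pool 3, 21.4 to 31.9 on dpi 2, 16.9 to 24.9 on dpi 10 and 9.5 to 17.9 on dpi 42, lowest in the naive library.

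Gdnf (chr15:7810846-7837575, plus strand), which encodes glial cell line-derived neurotrophic factor, was counted in OL on dpi 2 and hardly at other times. Its OL counts were 0, 0 and 0 in naive tissue, 352, 265 and 183 on dpi 2, then 20, 2 and 0 on dpi 10, then 0, 0 and 0 on dpi 42. The 3 libraries of dpi 2 were thus apart from all others. Against the floor of 3 counts per library over the 3 naive libraries, OL Gdnf was at least 84.4-fold higher on dpi 2 (q = 3.14e-05, edgeR). The fall from dpi 2 to dpi 42 passed as well (q = 0.000124, edgeR).

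In total RNA Gdnf was counted at every time, with 4, 9 and 14 counts in naive tissue, 106, 81 and 48 on dpi 2, then 34, 28 and 32 on dpi 10, then 8, 68 and 35 on dpi 42. The total change on dpi 2 was 2.96 ± 0.96 (q = 0.0218, edgeR), with q up to 0.0876 when total RNA of naive pool 1, naive pool 2 or dpi 2 pool 1 was left out. OL Gdnf was below total Gdnf both times it had 0 counts in OL (q = 0.00757 in naive mice and 0.00049 on dpi 42), and it was above total Gdnf on dpi 2 by 2.18 ± 0.90 (q = 0.0494). This last call was lost in 15 of 24 fits without 1 library (q up to 0.141) and with the block for the tissue pool (q = 0.0813, edgeR). On dpi 10 the OL change passed (q = 0.0262, edgeR), though pool 1 held 20 of the counts and q was 0.25 without that library. The call was also lost when any of the 3 naive OL libraries was left out and without naive pool 3 (q = 0.0621).

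Relative to Prx, Gdnf in OL ran from 15.1 to 62.9 counts per 100 Prx counts on dpi 2 and from 0 to 0.769 on dpi 10. Naive pool 3 had 0 Gdnf counts in OL beside 2155 of Prx. Gdnf and Prx thus had different courses, and dpi 2 pool 2, the highest of its day for Prx, had the lowest Gdnf ratio.

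The upstream windows of Egfl8 and Gdnf are shown as those of the 2 members that rose in OL on dpi 2 with all libraries. They lie at chr17:34615972-34616221 on the minus strand and chr15:7809798-7810047 on the plus strand (RefSeq, GRCm38.p6), with capitals as above. The Gdnf window ends short of the gene start given above, 7810846, and so does not reach the first annotated exon base.
Egfl8: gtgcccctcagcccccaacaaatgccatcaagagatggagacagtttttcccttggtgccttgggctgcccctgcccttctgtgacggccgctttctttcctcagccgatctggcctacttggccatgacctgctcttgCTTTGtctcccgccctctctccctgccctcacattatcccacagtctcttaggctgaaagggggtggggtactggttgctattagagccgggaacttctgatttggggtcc
Gdnf: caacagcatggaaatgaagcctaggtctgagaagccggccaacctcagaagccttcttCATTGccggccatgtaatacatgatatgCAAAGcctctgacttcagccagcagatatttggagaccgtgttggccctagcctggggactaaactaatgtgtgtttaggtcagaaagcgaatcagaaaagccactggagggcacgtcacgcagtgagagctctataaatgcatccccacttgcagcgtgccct
Neither window held the EGR letters found in Prx and Cldn19, Egfl8 had 1 match to CAAAG, and Gdnf had 1 match to each SOX core.

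Ncmap rose in OL with and without naive pool 3 on dpi 10 and 42. Its OL counts were 142, 410 and 120 on dpi 2, then 682, 291 and 520 on dpi 10, then 761, 580 and 779 on dpi 42. On dpi 10 and 42 all 6 libraries lay above the 196 counts of naive pool 3, whereas dpi 2 overlapped it. Log2FC of OL was 1.36 ± 0.64 (q = 0.102), 2.47 ± 0.66 (q = 0.0111) and 2.93 ± 0.67 (q = 0.0018), and 2.67, 3.78 and 4.23 without naive pool 3 (q = 0.00173, 0.000284 and 5.57e-05, edgeR). On dpi 10 the call was lost, with q up to 0.0618, when naive OL pool 1 or 2 was left out. In total RNA it passed on dpi 42 (2.22 ± 0.65, q = 0.0172, or up to 0.084 without total RNA of naive pool 1 or 2).

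Drp2 did not pass in OL on any injured day with all libraries and passed on each without naive pool 3. Its OL counts were 684, 1263 and 1543 on dpi 2, then 908, 938 and 787 on dpi 10, then 2379, 1935 and 1614 on dpi 42. Each was above the 145 and 184 of naive pools 1 and 2, and 7 of the 9 were below the 1777 of pool 3. The OL change was 0.73 ± 0.54, 0.30 ± 0.54 and 1.41 ± 0.55 (q = 0.312, 0.795 and 0.0511), and 2.71, 2.28 and 3.39 without that pool (q of at most 5.87e-06, edgeR). The dpi 42 value lay at the threshold and passed with q = 0.0495 in edgeR under either other filter on low counts. Astrocyte markers summed to 2470, 901 and 7440 CPM in OL on dpi 2, then 1910, 5940 and 2380 on dpi 10, then 11700, 9770 and 1810 on dpi 42. In naive tissue and on each injured day the OL library with the most Drp2 was also that with the highest astrocyte sum. On dpi 10 this was a near tie, with 35.3 and 35.7 CPM of Drp2 in pools 1 and 2 beside sums of 1910 and 5940 CPM. The part of astrocyte RNA was not tested.

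**Figure D4:**
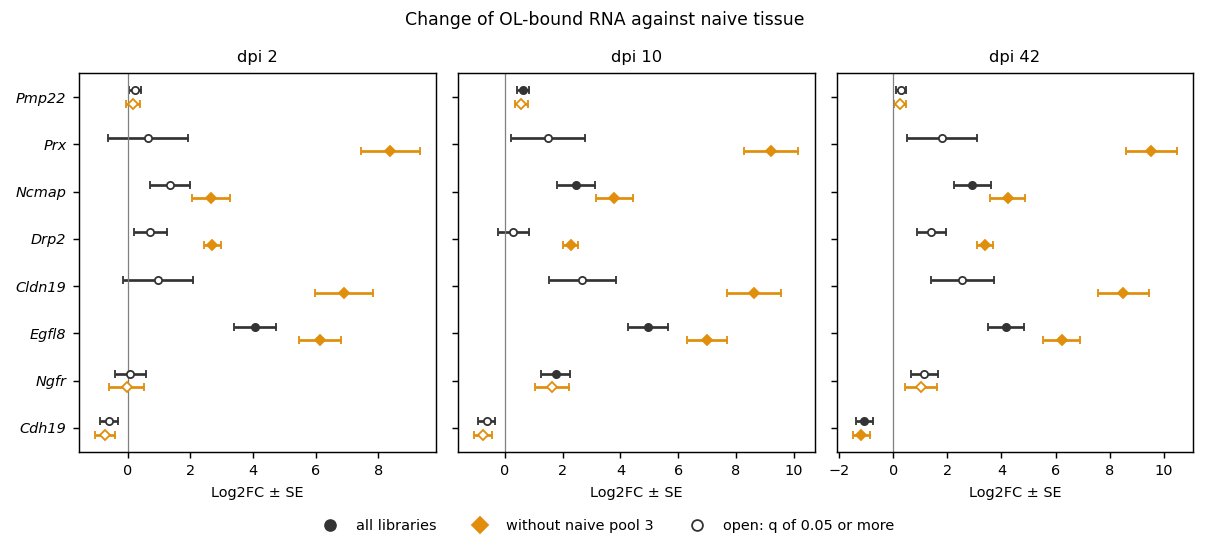
Log2FC of OL-bound RNA on dpi 2, 10 and 42 against naive tissue for 8 members, with bars of 1 SE, in the fit of all libraries (dark circles) and without both libraries of naive pool 3 (orange diamonds); open markers have q of 0.05 or more, and Gdnf is left out because its naive OL counts were 0. Prx moves from 0.66, 1.49 and 1.81 to 8.38, 9.21 and 9.54 when naive pool 3 is left out, while Pmp22, Ngfr and Cdh19 hardly move.

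Pmp22 rose in total RNA at each time, and in OL it passed on dpi 10. Its total counts were 4116, 4044 and 5501 in naive tissue, 8368, 12569 and 7026 on dpi 2, then 10557, 8305 and 9214 on dpi 10, then 13029, 8456 and 9450 on dpi 42, so injured and naive libraries did not overlap. The total change was 0.90 ± 0.20, 0.89 ± 0.20 and 1.04 ± 0.20 (q = 0.000918, 0.00127 and 6e-04, edgeR). In OL the counts were 21168, 21129 and 17199 on dpi 2, then 30116, 23913 and 25459 on dpi 10, then 21192, 20812 and 23048 on dpi 42. OL changed by 0.23 ± 0.19, 0.63 ± 0.20 and 0.29 ± 0.20 (q = 0.388, 0.029 and 0.269, edgeR). The call on dpi 10 was lost without naive pool 3 (0.58, q = 0.069) and when any OL library of naive tissue, or dpi 10 pool 1 or 3, was left out (q up to 0.124). OL change minus total change of Pmp22 was -0.67, -0.27 and -0.74 (q = 0.117, 0.689 and 0.108, edgeR). On dpi 2 and 42 this difference passed in some fits that left out 1 OL library. It was -0.96 (q = 0.0395) on dpi 2 without OL of dpi 2 pool 2. On dpi 42 it was -1.0 (q = 0.0293) without OL of dpi 42 pool 3.

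Ngfr rose in total RNA at each time, and in OL it passed on dpi 10. Total counts were 91, 95 and 111 in naive tissue, 854, 1329 and 415 on dpi 2, then 594, 182 and 299 on dpi 10, then 1059, 308 and 244 on dpi 42. OL counts were 269, 448 and 211 on dpi 2, then 1189, 811 and 1004 on dpi 10, then 917, 479 and 658 on dpi 42, beside 244 to 306 in naive tissue. Total Ngfr was thus above naive in all 9 injured libraries, whereas OL Ngfr on dpi 2 overlapped naive. The total change was 2.99 ± 0.54, 1.71 ± 0.52 and 2.31 ± 0.53 (q = 0.000147, 0.0148 and 0.00302), and on dpi 10 q reached 0.132 without total RNA of naive pool 1 or dpi 10 pool 1. The OL change was 0.09 ± 0.50, 1.76 ± 0.51 and 1.15 ± 0.50 (q = 0.963, 0.0189 and 0.0858, edgeR). The call on dpi 10 had q = 0.0626 without naive pool 3, and up to 0.0566 when OL of naive pool 1, naive pool 3 or dpi 10 pool 1 was left out. On dpi 42, when all 3 OL libraries lay above naive, Ngfr passed by DESeq2 (1.18, q = 0.0429) and by edgeR with only the groups compared (1.19, q = 0.0169).

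The difference between these Ngfr changes passed on dpi 2. OL change minus total change was -2.90 ± 0.72 (q = 0.0092, edgeR), or -3.10 without naive pool 3 (q = 0.0184). On dpi 10 and 42 it was 0.04 (q = 1) and -1.16 (q = 0.381). With all libraries Gdnf (8.30, q = 0.00894) was the other member that passed on dpi 2, and the naive OL counts of Gdnf were all 0, so this fitted value depends on the count added before taking logs. No member passed on dpi 10 or 42 by edgeR or DESeq2, while 1 and 2 members had an unadjusted p under 0.05 in edgeR. Of all genes 14.1% passed on dpi 2, 7.65% on dpi 10 and 7.84% on dpi 42. With the block for the tissue pool 2 members passed on dpi 10 (Egfl8, and Ncmap with 1.38, q = 0.0476) and 1 on dpi 42 (Egfl8), where 7.63% and 7.85% of genes passed. Without naive pool 3 the counts were 4, 2 and 2, where 12.2%, 5.36% and 7.96% of genes passed, and Drp2 was among them each time (2.34, 2.07 and 2.57, q = 0.000204, 0.00115 and 0.000207, edgeR).

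Cdh19 was the member that fell against naive tissue. OL counts were 1495, 1434 and 1222 in naive tissue, 891, 1255 and 732 on dpi 2, then 980, 1061 and 829 on dpi 10, then 400, 743 and 1023 on dpi 42. All dpi 10 and dpi 42 libraries were below naive, and 1 dpi 2 library was not. Log2FC of OL was -0.60 ± 0.30, -0.63 ± 0.30 and -1.06 ± 0.30 (q = 0.122, 0.157 and 0.00901, edgeR). With only the groups compared in the fit the dpi 42 value was -1.02 (q = 0.0725). In total RNA, with 706, 572 and 396 counts in naive tissue and 383 to 827 after injury, no change passed.

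OL enrichment compares OL with total RNA of the same group. In naive tissue Pmp22 (2.17 ± 0.20, q = 7.69e-09), Ngfr (1.83 ± 0.53, q = 0.00522) and Cdh19 (1.65 ± 0.30, q = 7.86e-05) were higher in OL by edgeR, and Gdnf was lower. Of all genes 24.9% were higher and 30.5% lower, beside 3 and 1 of the 9 members. Without naive pool 3 Pmp22, Ngfr and Cdh19 kept q of at most 0.014, while Drp2 became lower in OL (-2.60 ± 0.29, q = 1.8e-07), where 29.4% of genes were lower. With all libraries Drp2 had -0.84 (q = 0.2), and -1.69 (q = 0.0051) with the block for the tissue pool.

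Pmp22 and Cdh19 were higher in OL on each injured day as well. Pmp22 had 1.49, 1.90 and 1.42 on dpi 2, 10 and 42 and q of at most 3.02e-06 by edgeR. Cdh19 had 0.89 (q = 0.0162), 1.45 (q = 0.000365) and 0.86 (q = 0.02). The dpi 2 value had q up to 0.156 when total RNA of pool 1 or OL of pool 2 was left out, and 0.31 (q = 0.355) with library sizes alone. On dpi 42 q was up to 0.21 without total RNA of pool 2 or OL of pool 3, and the value was 0.35 (q = 0.306) with library sizes alone.

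Egfl8 was higher in OL on each injured day, by 1.65 ± 0.59 (q = 0.0217), 2.59 ± 0.60 (q = 0.00101) and 2.28 ± 0.60 (q = 0.00286, edgeR). The dpi 2 call was lost, with q up to 0.133, when total RNA of pool 1 or 3 or OL of pool 2 was left out, with library sizes alone (1.08, q = 0.131), and without both libraries of dpi 2 pool 2 (1.69, q = 0.0503). Ncmap passed on dpi 10 (1.52 ± 0.63, q = 0.0463) and Ngfr on dpi 10 (1.87 ± 0.51, q = 0.00369). The Ncmap value had q up to 0.15 in 8 of the 24 fits without 1 library, and 0.94 (q = 0.206) with library sizes alone. On dpi 2 Ngfr was -1.07 ± 0.50 (q = 0.0772, edgeR). It passed by DESeq2 (-1.12, q = 0.0423) and by edgeR with library sizes alone (-1.65, q = 0.00797).

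Counted together, 4 members were higher in OL on dpi 2 (24.8% of all genes were), 5 on dpi 10 (25.2%), and 3 on dpi 42 (24.9%), where Gdnf was lower (28.9% of genes were). On dpi 2 the count higher was 1 without total RNA of pool 1 or without both libraries of pool 2, and also 1, with Ngfr lower, without OL of pool 2 or with library sizes alone. Prx and Cldn19 did not pass with all libraries, where the spread of naive pool 3 entered the SE on each injured day. Prx had 1.20, 1.73 and 1.22 (q = 0.448, 0.269 and 0.441) and Cldn19 1.61, 1.89 and 1.12 (q = 0.238, 0.16 and 0.403, edgeR). Both passed at all 3 times without naive pool 3, where 24.8%, 25.1% and 24.9% of genes were higher, and q was at most 0.0346 for Prx and 0.0496 for Cldn19 at the same values.

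The block for the tissue pool changed more of these calls. Prx was 1.31 (q = 0.0107), 1.77 (q = 0.00148) and 1.32 (q = 0.0103), and Cldn19 1.77 (q = 0.00354), 1.90 (q = 0.0017) and 1.21 (q = 0.0255) with this block in edgeR. Ncmap passed on dpi 2 (0.81, q = 0.0229) and dpi 42 (1.11, q = 0.00293). Ngfr was lower in OL on dpi 2 (-1.0, q = 0.0153) and higher on dpi 42 (0.97, q = 0.0206). In all 7 members passed on dpi 2 and 8 on dpi 42 with the block, where 51.2% of genes passed on each day in either direction.

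**Figure D5:**
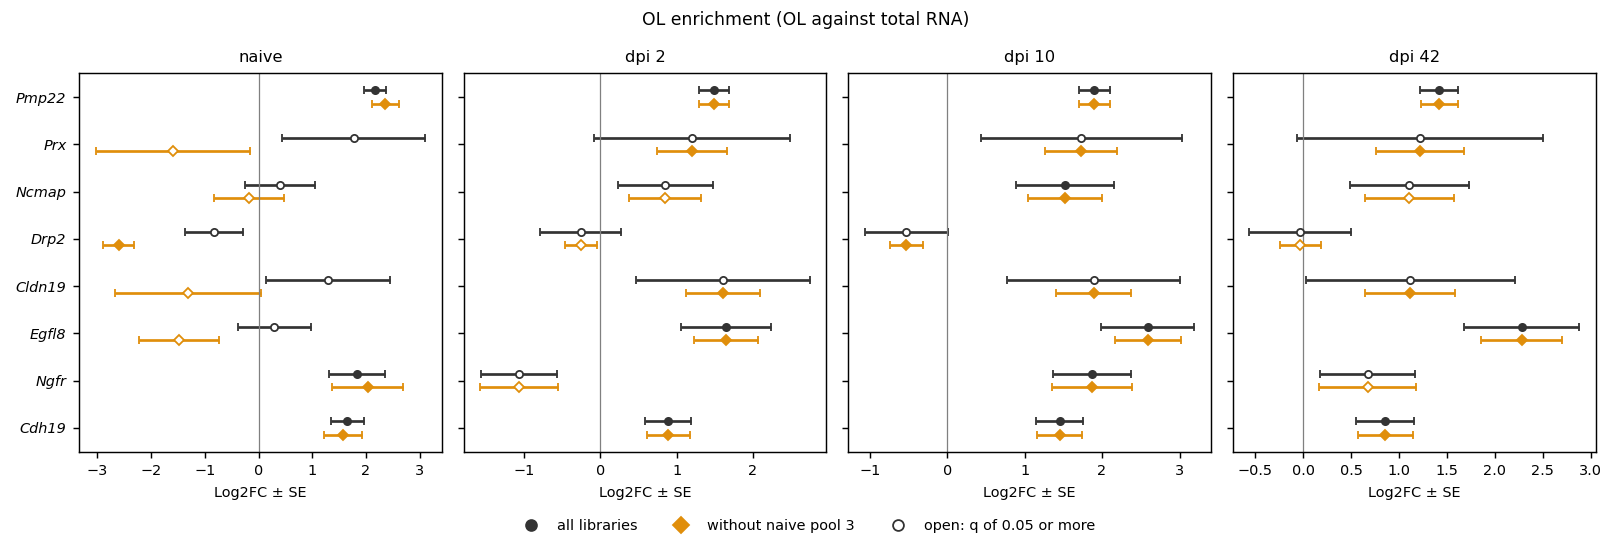
Log2FC of OL against total RNA in naive tissue and on dpi 2, 10 and 42 for 8 members (Gdnf left out), with bars of 1 SE, in the fit of all libraries (dark circles) and without both libraries of naive pool 3 (orange diamonds); open markers have q of 0.05 or more. Drp2 in naive tissue moves from -0.84 to -2.60 without naive pool 3, and on injured days the values stay while the bars of Prx and Cldn19 shrink.

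In total RNA 4, 3 and 4 of the 9 members rose against naive on dpi 2, 10 and 42, where 16.4%, 13.9% and 10.4% of all genes rose. These were Pmp22, Egfl8, Gdnf and Ngfr on dpi 2, Pmp22, Egfl8 and Ngfr on dpi 10, and Pmp22, Ncmap, Egfl8 and Ngfr on dpi 42. Without naive pool 3 the counts were 7, 6 and 7, where 14.6%, 12.1% and 8.97% of genes rose. On dpi 42 the count was 2 without total RNA of naive pool 1 or of naive pool 2.

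Levels between genes can be compared per length. In OL on dpi 42 the order by RPKM (counts scaled to depth and to kilobases of exon) was Pmp22 (343 ± 35.9), Prx (17.4 ± 1.96), Ncmap (11.8 ± 1.99), Drp2 (8.52 ± 1.17), Egfl8 (8.21 ± 0.839), Ngfr (7.32 ± 2.06), Cdh19 (6.37 ± 3.04), Cldn19 (5.73 ± 0.777) and Gdnf at 0 (SD, n = 3). Neighbours from Drp2 to Cldn19 differed by less than the larger of their SDs, whereas Pmp22 stood far above the rest. In naive OL the order was led by Pmp22 (280 ± 17.5) and Cdh19 (13.3 ± 2.04).

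Of 6 further genes of myelinating Schwann cells, the numbers higher in OL were 2 on each day, and 1 was lower on dpi 2 and on dpi 42. Of all genes 18.4%, 9.62% and 16.2% rose on dpi 2, 10 and 42, and 20%, 8.59% and 16.9% fell. Those that rose were Gldn, which encodes gliomedin of the node of Ranvier (4.84, 3.54 and 2.52, q = 7.47e-05, 0.00307 and 0.0149, edgeR), and Dhh (3.35, 3.76 and 3.41, q = 0.0151, 0.0169 and 0.0162). Itgb4, the integrin beta 4 chain, fell on dpi 2 (-1.33) and dpi 42 (-0.65), and had 12088 to 18341 counts in naive OL. The 6 genes summed to 705, 778 and 483 CPM in naive OL pools 1, 2 and 3. Itgb4 held most of these counts, so the sum does not describe the rest of the list. Egr2 and Dhh, of the same list, followed the split of Prx in naive OL, as given above. The median over the 6 was 1.5, 2.58 and 2.27, against 0 over all genes. By DESeq2 3 of the 6 rose on each day, and 1 fell on dpi 2 and on dpi 42, with no share of all genes taken for that test.

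Egr2 had 1.79, 1.63 and 2.02 (q = 0.282, 0.416 and 0.236, edgeR), and with 0 counts in naive OL pools 1 and 2 it was at least 54.9-fold, 49-fold and 64.5-fold higher than the floor of 3 counts per library there. Without naive pool 3, 4 of the 6 genes rose and 1 fell on each day. In that fit 18.4%, 9.96% and 16.9% of all genes rose on dpi 2, 10 and 42, and 17% fell on dpi 42. The shares that fell on dpi 2 and 10 in that fit are not given here. Pmp2 stayed low, at no more than 2.21 CPM in any library, and shares 1224 exon bases with Gm37389, so its counts are uncertain.

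Among 8 other genes of the Schwann lineage the numbers that rose in OL were 1, 2 and 1 on dpi 2, 10 and 42, and those that fell were 3, 2 and 2. Of all genes 18.4%, 9.62% and 16.2% rose and 20%, 8.59% and 16.9% fell by edgeR. By DESeq2 1, 4 and 3 of the 8 rose, with no share of all genes taken for that test. Lgi4, a secreted Schwann cell signal also made by other glia, rose on dpi 2 (1.97, q = 9.63e-06) and dpi 42 (1.42, q = 0.000442, edgeR). Ncam1, Sox10 and Erbb3, which OLs also express, fell on dpi 2 (-1.50, -0.59 and -0.63). The median over the 8 was 0.54, 0.75 and 0.99, and without naive pool 3, 4, 5 and 4 rose and 3, 2 and 3 fell. In that fit 18.4%, 9.96% and 16.9% of all genes rose, and 17% fell on dpi 42.

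Of 11 genes of the injury response of Schwann cells 4 rose on dpi 2, 0 on dpi 10 by edgeR and 1 on dpi 42, where 18.4%, 9.62% and 16.2% of all genes rose. By DESeq2 2 rose on dpi 42. On dpi 10, 2 of the 11 had an unadjusted p under 0.05 and 1 rose by DESeq2. No share of all genes was taken for these counts. Tnc (2.80, q = 0.00308), Shh (2.47, q = 0.0129), Sox2 (1.11, q = 0.0153) and Runx2 (1.85, q = 0.0474) were those of dpi 2. Shh passed on dpi 42 (2.37, q = 0.0192). Naive OL counts were low for Shh (11, 0 and 5) and Runx2 (8, 15 and 10). The median over the 11 was 1.15, 1.02 and 0.65. Without naive pool 3 the numbers that rose were 3, 2 and 2, with 1 that fell on dpi 2. In that fit 18.4%, 9.96% and 16.9% of all genes rose.

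Of the 16 tested neurotrophin and GDNF family genes, those that rose in OL numbered 2 on each day, with 1 that fell on dpi 2 and 1 on dpi 42. Of all genes 18.4%, 9.62% and 16.2% rose, and 20% and 16.9% fell on dpi 2 and 42. Nrtn, which encodes the GDNF relative neurturin, rose each time (3.47, 2.80 and 2.85, q = 2.43e-06, 9.64e-05 and 3.78e-05, edgeR). Gfra2, the neurturin co-receptor, rose on dpi 2 (0.96, q = 0.00738) and dpi 42 (1.02, q = 0.00581). Sort1, the sortilin partner of p75, fell on dpi 2 (-1.56) and dpi 42 (-0.43). The median over the list was 0.20, -0.03 and 0.09, and without naive pool 3, 3, 3 and 5 rose and 1, 0 and 2 fell. In that fit 18.4%, 9.96% and 16.9% of all genes rose, and 17% fell on dpi 42.

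The 7 dystroglycan complex partners of periaxin and DRP2 did not rise in OL with all libraries. Lama2, a laminin chain (-1.56, q = 0.00275), and Sgce, a sarcoglycan (-0.40, q = 0.0219, edgeR), fell on dpi 2, when 20% of all genes fell. On dpi 10 and 42, 0 of the 7 passed by edgeR or DESeq2, and 1 and 2 had an unadjusted p under 0.05. The median over the 7 was -0.30, 0.09 and -0.10, and without naive pool 3, 2, 3 and 3 rose and 2, 0 and 1 fell. In that fit 18.4%, 9.96% and 16.9% of all genes rose, and 17% fell on dpi 42.

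Markers of cells that could accompany nerve tissue moved too. The 6 fibroblast and meningeal markers summed to 60.4, 48.7 and 92.8 CPM in naive OL pools 1, 2 and 3 and to 206 to 611 CPM in injured OL libraries. Of the 6, 5, 5 and 6 rose in OL on dpi 2, 10 and 42, where 18.4%, 9.62% and 16.2% of all genes rose. Lum was at or under the floor in all 3 naive OL libraries. In total RNA these sums were 67 to 92.1 CPM in naive tissue, 423 to 877 on dpi 2, 2120 to 2390 on dpi 10 and 505 to 824 on dpi 42. The 5 myeloid markers summed to 4.23 to 5.46 CPM in naive OL and 29.4 to 66.6 CPM after injury. All 5 rose in OL on each day, beside the same shares of all genes. Their part in the changes of the members was not tested.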

How the data were processed

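RNA counts per gene of the 24 libraries were used as the authors deposited them. According to the study's methods and the sample labels, reads were checked with FastQC (0.10.1), aligned to the mouse genome with STAR and counted on genes with HTSeq (0.10.0). The counts are not normalized, and 0 columns lacked a sample. Ensembl identifiers were given symbols from GRCm38 gene models, and 21939 of 21965 had one. Libraries were grouped by the labels, and a tissue pool joins the total RNA and OL libraries of the same mice. The members and the gene lists were chosen with earlier results of these data known. 1 gene of the lists is not reported here.

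The 17167 genes that reached 10 counts over all libraries entered 1 model of 8 groups in edgeR (4.0.16, R 4.3.3, limma 3.58.1) with TMM scaling and the quasi-likelihood test, and p-values were adjusted by Benjamini-Hochberg over all of them (q, called under 0.05). Log2FC is that of edgeR with its default prior count, and its SE was the Log2FC over the square root of F. Log2 CPM, used for the likeness to Prx, had a prior count of 2. OL enrichment is OL against total RNA of a group, and differential OL enrichment is OL change minus total change. CPM are TMM-scaled and RPKM use the union of exons. The script was tested on simulated counts. In the main fit p-values rest on 1 estimate of spread per gene over all 24 libraries, with 3 pools of 2 mice per group. Total RNA and OL libraries of a pool counted as independent in it. Naive pool 3 thus also entered the SE of comparisons between injured libraries. For Prx OL enrichment on dpi 10 this SE was 1.30 with that pool and 0.466 without it. The genes named beside the 9 members are those whose log2 CPM followed Prx most closely over the 12 OL libraries and list genes that passed the test.

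Same-pool libraries deviated together in naive tissue and on dpi 2 (r across genes of 0.0408 to 0.137 and 0.0879 to 0.108), less on dpi 10 (0.0245 to 0.063) and not on dpi 42 (-0.0109 to 0.02). Because both came from the same animals, the blocked values are given where they change a call. Replicate pairs of a group differed beyond sampling noise in each of 24 pairs (median chi-square per gene 2.51 to 21.1). Alternatives were DESeq2 (1.42.0) scaling and test, library sizes alone, other filters, only the groups compared, blocks for the tissue pool or the replicate number, the fold limits of the study and each library left out. Leaving out naive pool 3, or dpi 2 pool 2, was chosen after seeing the data. Whether counting used strand is not given in the sources used here. Egfl8 overlaps Gm20460 by 615 exon bases, Prx overlaps Gm15541 by 300 and Cldn19 overlaps Gm12927 by 90, and these partners were not analysed here.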

Additional observations from a re-analysis of the deposited data

Results flagged for a closer look

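The changes of OL and total RNA differed on dpi 2 for Gdnf and Ngfr by a test of the difference itself (edgeR). For Gdnf OL change minus total change was 8.30 (q = 0.00894), which depends on the prior count because naive OL held 0 counts. For Ngfr it was -2.90 (q = 0.0092), with Ngfr higher in 3 of 3 total libraries of dpi 2 than in any naive one and overlapping naive in OL. Both passed in all 24 fits without 1 library. With 3 libraries per group, single outlying libraries were not tested.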

How the results depend on the processing

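Numbers below are counts of the 9 members that passed. The shares of all genes beside them stand with the results for all libraries, without naive pool 3 and with the tissue pool block. For the other settings no share was taken, so those counts show only how the calls of the members moved. With all libraries these were 4, 4, 5 and 4 for OL enrichment (naive, dpi 2, 10, 42), and for dpi 2, 10 and 42 they were 2, 5 and 3 for OL change, 4, 3 and 4 for total change, and 2, 0 and 0 for differential OL enrichment. From dpi 2 to dpi 42 in OL 1 member passed.

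Without both libraries of naive pool 3, OL enrichment on dpi 10 had 8, OL change 6 on dpi 2 and 6 on dpi 42, total change 7, 6 and 7, differential OL enrichment 4, 2 and 2, and dpi 42 against dpi 2 had 4. Without both libraries of dpi 2 pool 2, OL enrichment on dpi 2 had 1, differential OL enrichment on dpi 42 had 1 and dpi 42 against dpi 2 had 2. With library sizes alone OL enrichment on dpi 2 had 2. With only the groups compared, OL enrichment on dpi 10 had 8, total change on dpi 10 had 6 and dpi 42 against dpi 2 had 2. The replicate block for the tissue pool gave 7 for OL enrichment on dpi 2 and 8 on dpi 42, where 51.2% of genes passed on each day. It gave 2 and 1 for differential OL enrichment on dpi 10 and 42, where 7.63% and 7.85% of genes passed. Calls it changed are given with the results. The cause of these moves was not tested.

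A block for the replicate number, which only shares a number between groups (r of -0.309 to 0.248 over 18 same-numbered pairs against -0.174 to 0.221 over 36 others), changed 1 call among single members (Drp2 OL change on dpi 42, 1.67, q = 0.0267, edgeR).

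With 1 library left out, OL enrichment had 4 to 7, 1 to 5, 4 to 6 and 3 to 5 in naive tissue and on dpi 2, 10 and 42. OL change had 2 to 6, 1 to 5 and 3 to 6, total change 3 to 5, 2 to 6 and 2 to 6, differential OL enrichment 2 to 7, 0 to 4 and 0 to 5, and dpi 42 against dpi 2 had 1 to 3. The highest counts of OL change on dpi 2 and 42 and of all 3 differential comparisons came without OL of naive pool 3, which left total RNA of that pool in the fit. Differential OL enrichment on dpi 42 also had 1 without OL of dpi 2 pool 3 and 2 without OL of dpi 42 pool 3, and dpi 42 against dpi 2 had 2 without OL of dpi 2 pool 2.

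Directions that reversed did so without OL of naive pool 3. OL enrichment in naive tissue then ranged over the 24 fits from -5.80 to 6.13 for Prx and from -4.50 to 4.63 for Cldn19. Differential OL enrichment of Prx ranged from -4.93 to 6.94 on dpi 2, -4.40 to 7.57 on dpi 10 and -4.91 to 7.03 on dpi 42, and that of Cldn19 on dpi 42 from -3.51 to 5.63. Of 4078 values for single members, 100 changed sign without passing before or after.

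Depth limits genes near the floor of 3 counts (0.084 to 0.127 CPM), here Gdnf in OL outside dpi 2 and Prx, Cldn19 and Egfl8 in naive pools 1 and 2. The naive level of peripheral myelin genes rests on 1 pool of 3. Ratios to Prx in naive tissue have no replicate.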
